A study of Mus musculus with 5 samples.

Results

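The members described here are 10 genes of the pluripotency programme, Dppa5a, Zfp42, Nanog, Tdgf1, Pou5f1, Sox2, Dppa3, L1td1, Tdh and Spp1, of 24411 genes in the table of molecule counts. They were chosen from measured values, because Dppa5a led a group of cells in which the others were also found. Cells with Dppa5a at 500 CPM (the gene's UMIs divided by all UMIs of the cell, scaled to 1e6) or more are called Dppa5a-high, and all remaining kept cells are called other cells. The limit left 25 Dppa5a-high cells and 269 other cells, 294 in all. Differences between these groups are therefore descriptions, and no test was made of them.

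The study profiled circulating cells outside the blood lineages in mid-gestation embryos. Wild-type C57BL/6 mouse embryos were sampled at embryonic day 10 (E10, 3 batches) and embryonic day 9.5 (E9.5, 2 batches). No group had a treatment or an altered gene. Per the labels, blood came from the heart and was sorted as TER119-CD41-CD43-CD45-, which removes erythroid cells, platelets with their precursors, and white cells, and single cells were picked by mouth pipette. The labels do not tie batches to litters, and p-values here measure the spread between batches, which may be technical.

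A modified STRT-seq protocol was used, in which an oligo-dT primer gives each cell a barcode of 8 bases and each molecule a unique molecular identifier (UMI) of 8 bases. The series text states 300 cells. The limits used here, 1000 genes and 30000 UMIs, kept 87, 72 and 63 columns in E10 replicates 1, 2 and 3, and 26 and 46 columns in E9.5 replicates 1 and 2. The median depth of kept cells lay between 144729 and 485692 UMIs by batch. All 96 column numbers occurred in every batch, and 0 kept cells held identical counts.

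Pluripotency is the capacity of the early epiblast, and of embryonic stem cells made from it, to form all lineages of the embryo. It rests on a core of transcription factors, in which POU5F1 and SOX2 bind DNA side by side and NANOG stabilises the state. The naive form corresponds to the epiblast of the blastocyst, the primed form to the epiblast around implantation, and primordial germ cells express part of the same programme during mid-gestation. In somatic cells at this stage most of the core genes are silent, whereas Sox2 remains active in neural progenitors.

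Promoter sequence is shown for Nanog and Zfp42, whose windows held the composite and the octamer described next, since these members were counted together in the same cells. Promoter windows of 250 bases before the RefSeq start site (GRCm38.p6) were found for 7 of the 10 members, 10 windows in all. On both strands, 4 motifs were searched: the octamer ATGCAAAT bound by POU factors, the SOX core CATTGT, their composite (the SOX core, any base, then ATGCAAA, so that each composite also holds a SOX core), and the ESRRB element TCAAGGTCA. The composite occurred in 2 of 32851 windows (0.00609%), and both were windows of Nanog from neighbouring start sites. The octamer occurred in 1.6% of all windows, among them Zfp42 and the second start site of Spp1. The SOX core was in 10.7% of all windows and in 3 of the members' windows, both of Nanog and the second start site of Pou5f1, while the ESRRB element was in 0.387% of all windows and in 0 of the members'. Below, capitals mark the composite in Nanog (chr6:122707239-122707488, plus strand), beginning 75 bases before the start site, and the octamer in Zfp42 (chr8:43307010-43307259, minus strand), beginning 186 bases before it. Each is read in reverse complement.
Nanog: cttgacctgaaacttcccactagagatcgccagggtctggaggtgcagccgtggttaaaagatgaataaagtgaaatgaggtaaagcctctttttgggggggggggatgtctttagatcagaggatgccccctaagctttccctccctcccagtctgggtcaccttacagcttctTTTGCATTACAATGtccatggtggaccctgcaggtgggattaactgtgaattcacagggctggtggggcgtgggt
Zfp42: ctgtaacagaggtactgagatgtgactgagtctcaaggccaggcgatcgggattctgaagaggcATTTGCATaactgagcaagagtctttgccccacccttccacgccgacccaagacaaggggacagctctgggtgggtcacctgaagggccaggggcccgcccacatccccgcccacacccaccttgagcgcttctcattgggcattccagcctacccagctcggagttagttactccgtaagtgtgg
A match describes these letters and is not evidence of binding.

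All 25 Dppa5a-high cells belonged to 1 batch, E10 replicate 1. They were 25 of its 87 kept cells, a share of 28.7% (95% exact Clopper-Pearson interval 19.5% to 39.4%). In E10 replicate 2 the share was 0 of 72 cells (upper end of the same interval 4.99%). In E10 replicate 3 it was 0 of 63 cells (upper end 5.69%). In E9.5 replicate 1 it was 0 of 26 cells (upper end 13.2%), and in E9.5 replicate 2 it was 0 of 46 cells (upper end 7.71%). The Dppa5a-high group is therefore 1 sample, and its batch and its state cannot be told apart. Intervals and limits here cover counting error only.

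**Figure D1:**
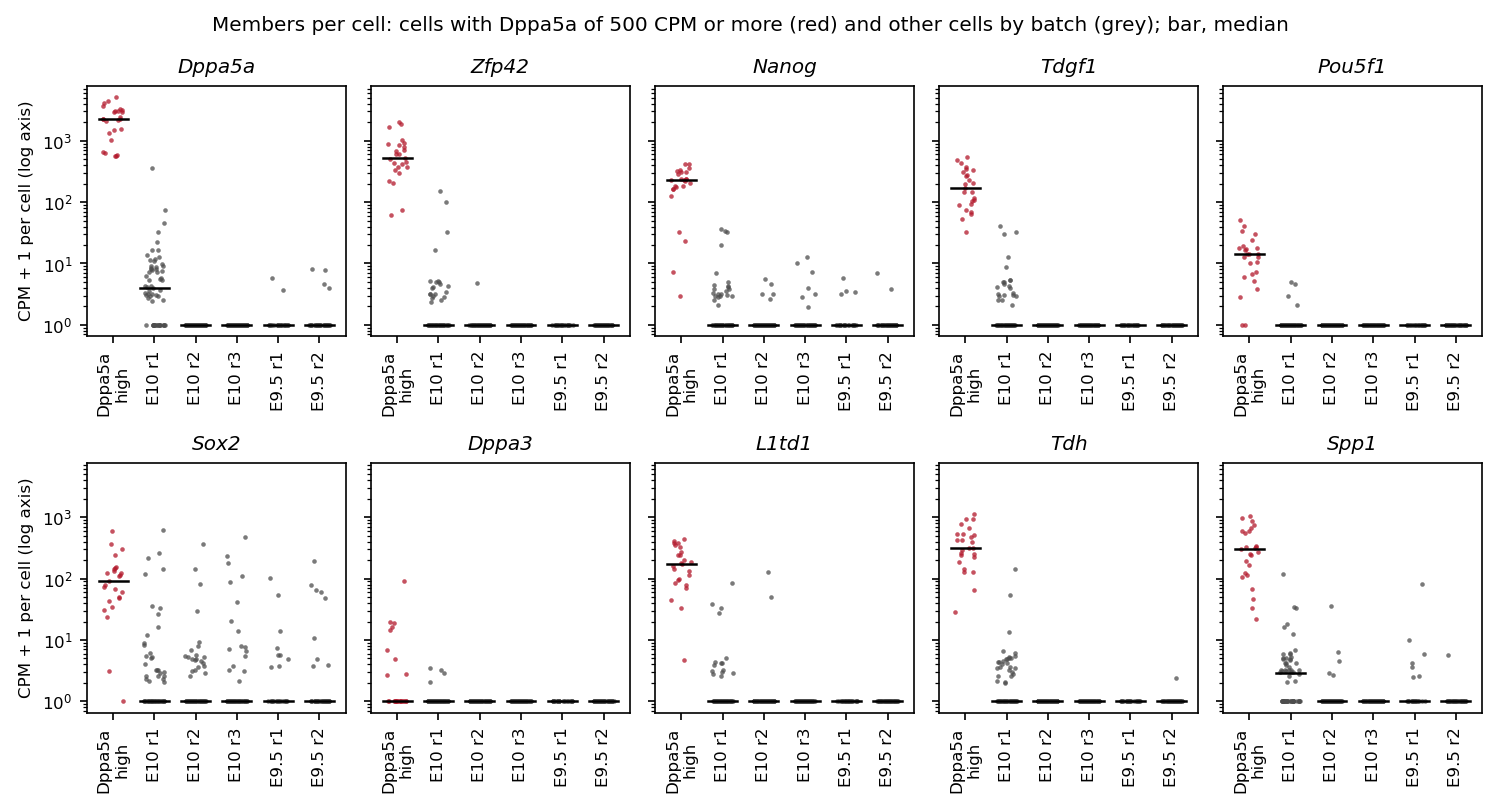
Each point is 1 kept cell, each panel 1 member, and the vertical log axis is CPM with 1 added. Red points are the 25 Dppa5a-high cells, grey points are other cells by batch, and the bar is the median: in the 4 batches other than E10 replicate 1 the median of each member is 0 CPM, with single cells higher for Sox2, L1td1 and Spp1.

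Dppa5a encodes a small RNA-binding protein used as a marker of mouse embryonic stem cells, on chromosome 9 (78367052 to 78368177, minus strand, GRCm38). In the Dppa5a-high cells it spanned 563 to 5089 CPM with a median of 2243 CPM. In the 62 other cells of E10 replicate 1 its highest value was 358 CPM. The gap between the groups was made by the rule. Just inside the limit stood the cells of table columns 42, 23 and 40 at 563, 574 and 579 CPM, and just outside it columns 30, 48 and 25 at 358, 74.0 and 43.9 CPM. The cell of column 30 had UMIs of all 10 members and that of column 48 of 9 members, whereas column 25 had Dppa5a alone.

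The transcription factors of the core were present together, at different levels relative to the other cells. Nanog (chromosome 6, 122707489 to 122714633, plus strand), a homeodomain factor, spanned 1.90 to 415 CPM in the Dppa5a-high cells with a median of 229 CPM, and was detected in all 25. Its highest value in the other cells of the batch was 35.3 CPM, so the groups overlapped only through the low tail. Sox2 (chromosome 3, 34650405 to 34652461, plus strand), an HMG-box factor, spanned 0 to 586 CPM with a median of 90.3 CPM and was detected in 24 of 25 cells. Other cells reached 622 CPM, so for Sox2 the groups overlapped over their whole range. Pou5f1 (chromosome 17, 35506018 to 35510772, plus strand), which encodes OCT4, had UMIs in 23 of 25 Dppa5a-high cells but spanned only 0 to 50.4 CPM, with a median of 13.3 CPM. The other cells of the batch held 4 Pou5f1 UMIs in all, in 4 of 62 cells, and at most 4.02 CPM. Zfp42 (chromosome 8, 43295063 to 43306980, minus strand), the zinc-finger gene known as Rex1 and a marker of the naive state, spanned 60.9 to 2044 CPM with a median of 518 CPM. Its highest value in an other cell was 148 CPM, in column 48.

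The members with roles in signalling, RNA binding and metabolism followed the same cells. Tdgf1 (Cripto), the membrane-bound co-receptor of Nodal, spanned 31.5 to 535 CPM with a median of 167 CPM in the Dppa5a-high cells, against a highest value of 40.2 CPM in the other cells of the batch. L1td1, an RNA-binding protein derived from a LINE-1 element, spanned 3.80 to 446 CPM with a median of 169 CPM, against at most 82.3 CPM. Both genes had UMIs in all 25 Dppa5a-high cells. Tdh encodes the mitochondrial threonine dehydrogenase on which mouse embryonic stem cells depend, and spanned 27.3 to 1145 CPM with a median of 319 CPM, against at most 144 CPM. Spp1, the secreted phosphoprotein osteopontin, spanned 21.0 to 1060 CPM with a median of 302 CPM, against at most 117 CPM. The ranges of these 4 members overlapped only where the lowest Dppa5a-high cells met the highest other cells. Dppa3 (Stella), which protects imprinted methylation in the early embryo and marks primordial germ cells, was the exception. It had UMIs in 9 of 25 Dppa5a-high cells, with a median of 0 CPM and a highest value of 90.0 CPM, in column 47. It had 4 UMIs in the 62 other cells.

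On summed counts, Dppa5a stood at 2678 CPM in the Dppa5a-high cells (95% exact Poisson interval 2652 to 2704) and at 11.0 CPM in the other cells of E10 replicate 1 (9.78 to 12.2). The log2 ratio, computed on CPM with 10 added, was 7.00. The same sums for Zfp42 were 765 and 4.26 CPM, a log2 ratio of 5.76, and those for Nanog were 223 and 1.65 CPM, a log2 ratio of 4.32. For Tdh they were 475 and 3.74 CPM with a log2 ratio of 5.14, and for Spp1 441 and 4.67 CPM with a log2 ratio of 4.94. Tdgf1 and L1td1 had log2 ratios of 4.40 and 4.15. The added 10 CPM compresses the ratio of low genes. Pou5f1, at 17.9 and 0.137 CPM, had a log2 ratio of only 1.46. Sox2 stood at 130 and 19.5 CPM, with a log2 ratio of 2.24. Dppa3, at 7.91 and 0.137 CPM, did not reach the 10 CPM asked of a measured gene. The 9 measured members were all at least 2-fold higher, as were 5.29% of all 9647 measured genes, and the cells were chosen by this contrast. Of the 9, all but Dppa5a and Sox2 reached 10 CPM in the Dppa5a-high sum alone. The median log2 ratio of the 9 was 4.40 and that of all measured genes -0.17.

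Most members were found in the same cells. UMIs of all 10 members were present in 9 of the 25 Dppa5a-high cells, of 9 members in 14 cells, and of 8 and 7 members in 1 cell each. Of the 45 pairs of members, 21 were detected together in every one of the 25 cells. Across those cells, Pearson's r of log2(CPM + 10) over the 45 pairs lay between -0.03 and 0.83 with a median of 0.63. Without Pou5f1 and Dppa3 the 28 remaining pairs lay between 0.50 and 0.83. Zfp42 with L1td1 was the highest pair at 0.83, and L1td1 with Dppa3 the lowest. With Dppa5a, r was 0.78 for Zfp42, 0.72 for L1td1, 0.68 for Spp1, 0.62 for Pou5f1, 0.58 for Nanog and 0.18 for Dppa3. The points are cells of 1 library that share its depth: the summed level of the members also had an r of 0.57 with the UMIs per cell and 0.70 with the genes per cell.

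**Figure D2:**
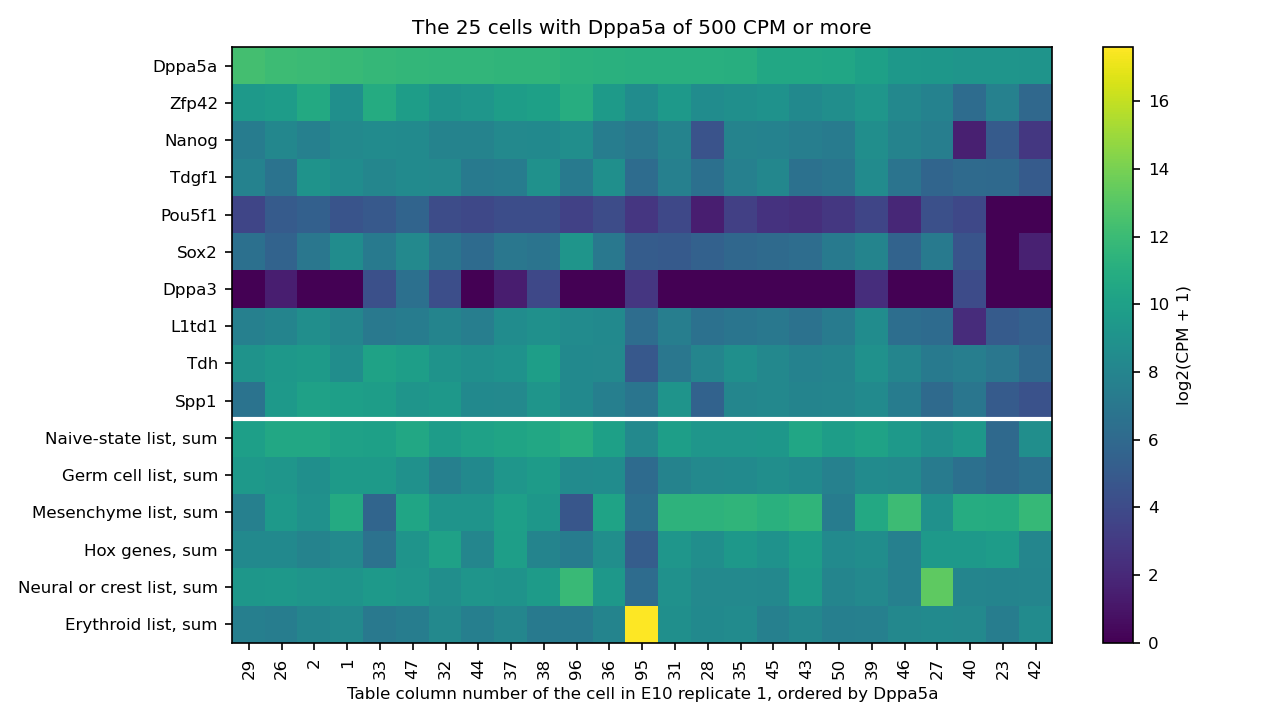
Each column is 1 of the 25 Dppa5a-high cells, ordered by Dppa5a from left to right, and colour gives log2(CPM + 1). The upper 10 rows are the members and the lower 6 rows the summed levels of marker lists. Dppa3 is patchy, and the cell of column 95 is set apart by its erythroid sum of 198860 CPM.

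Genes with the most similar pattern to Dppa5a were ranked by Pearson's r of log2(CPM + 10) over all 294 kept cells, among 13244 genes seen in at least 5% of cells. The ranking leans on the Dppa5a-high cells and is a description. Among the members, r was 0.98 for Zfp42, 0.97 for Tdgf1 and Tdh, 0.95 for Spp1, 0.94 for Nanog and L1td1, 0.88 for Pou5f1 and 0.61 for Sox2, and Dppa3 was seen in too few cells. Outside the members the 10 closest genes were Fam25c (0.95), Utf1 (0.94), Morc1 (0.94), AU018091 (0.94), Dppa2 (0.93), Esrrb (0.93), Trh (0.92), Ooep (0.92), Fgf4 (0.92) and Dppa4 (0.91). Utf1, Dppa2, Dppa4, Esrrb and Fgf4 are known genes of embryonic stem cells.

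Most genes of the naive-state list reached 10 CPM in the Dppa5a-high cells. Of its 15 genes 12 were measured. Of these, 10 were at least 2-fold higher in the Dppa5a-high cells, 0 were lower and 2 were within 2-fold. Of the 10, all but Klf2 reached 10 CPM in the Dppa5a-high sum alone. With 10 CPM added, a gene near 0 CPM in the other cells that passes this way is 2-fold higher by construction. The count is therefore a description. The shares over all 9647 measured genes were 5.29% higher and 6.05% lower. Esrrb, an orphan nuclear receptor of the naive network, had 108 CPM in the Dppa5a-high cells and 0.549 CPM in the other cells of the batch. Tfcp2l1, a second naive factor, had 165 and 1.96 CPM, and Klf2 174 and 37.8 CPM. Klf2 also stood at 269 CPM in the other cells of E9.5 replicate 1, above the Dppa5a-high cells. In the other cells of E10 replicates 2 and 3 and E9.5 replicate 2 it had 48.0, 17.9 and 39.3 CPM. Fgf4, Tcl1 and Fbxo15 had 47.7, 54.8 and 76.4 CPM in the Dppa5a-high cells, all under 1 CPM in the others. Nr0b1, Zscan10, Klf5 and Sox15 made up the 10. Klf4 (122 and 76.2 CPM) and Tbx3 (128 and 106 CPM) were within 2-fold, and both genes are also active outside pluripotent cells. The genes that fell short of 10 CPM were Prdm14 (8.57 and 0 CPM, in 15 of 25 and 0 of 62 cells), Nr5a2 (4.64 and 0.240 CPM) and Gbx2 (4.77 and 8.31 CPM). Across the 25 cells the naive-state sum had an r of 0.73 with the members' sum. Of 14 further pluripotency genes, 11 were at least 2-fold higher and 3 (Lin28a, Trim71, Mybl2) within 2-fold. Of the 11, all but Sall4 and Tet1 reached 10 CPM in the Dppa5a-high sum alone. Among the 11, Utf1 had 196 and 1.10 CPM, Gdf3 140 and 0.618 CPM, and Sall4 181 and 34.7 CPM. Dnmt3l, the cofactor of de novo DNA methylation, had 154 and 0.584 CPM.

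The germ cell list was split. Of 16 genes 9 stayed under 10 CPM in both sums, 4 were at least 2-fold higher and 3 within 2-fold, and the list summed to 416 CPM in the Dppa5a-high cells and 64.3 CPM in the other cells of the batch. Among all 9647 measured genes the share at least 2-fold higher was 5.29%. Only Nanos2 had 0 UMIs in the Dppa5a-high cells, so the low genes were at trace level rather than undetected. For Nanos2, a gene of male germ cells, this allows up to 0.196 CPM. Sycp3, Mael, Stk31 and Gtsf1 stood at 1.77, 0.196, 1.24 and 3.86 CPM. In the other cells of the batch they stood at 5.60, 0, 0.858 and 0 CPM, so Sycp3 was higher there. Gtsf1 had UMIs in 8 of 25 Dppa5a-high cells and 0 of 62 other cells. Ddx4, the germ cell helicase also called Vasa, had 4.18 CPM in the Dppa5a-high cells and 0.618 CPM in the others. Dazl had 7.19 and 1.13 CPM, and was seen in 5 of 25 and 2 of 62 cells. Among factors of germ cell specification, Prdm1 (BLIMP1) had 5.95 and 3.71 CPM and UMIs in 14 of 25 Dppa5a-high cells, Tfap2c 11.8 and 1.30 CPM, and Nanos3 19.1 and 14.6 CPM. The 4 higher genes were Ifitm3 (199 and 12.1 CPM), Alpl (88.6 and 2.23 CPM), Rnf17 (23.3 and 4.29 CPM) and Tdrd12 (19.1 and 2.06 CPM). All but Ifitm3 reached 10 CPM in the Dppa5a-high sum alone. Rnf17 had UMIs in 22 of 25 Dppa5a-high cells and 5 of 62 other cells. Ifitm3 and Alpl are also expressed by embryonic stem cells. Across the 25 cells the germ cell sum had an r of 0.81 with the members' sum. Ifitm3 and Alpl, at 199 and 88.6 CPM of the 416 CPM, made up the largest parts of the germ cell sum. The r of the list without these genes was not computed.

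**Figure D3:**
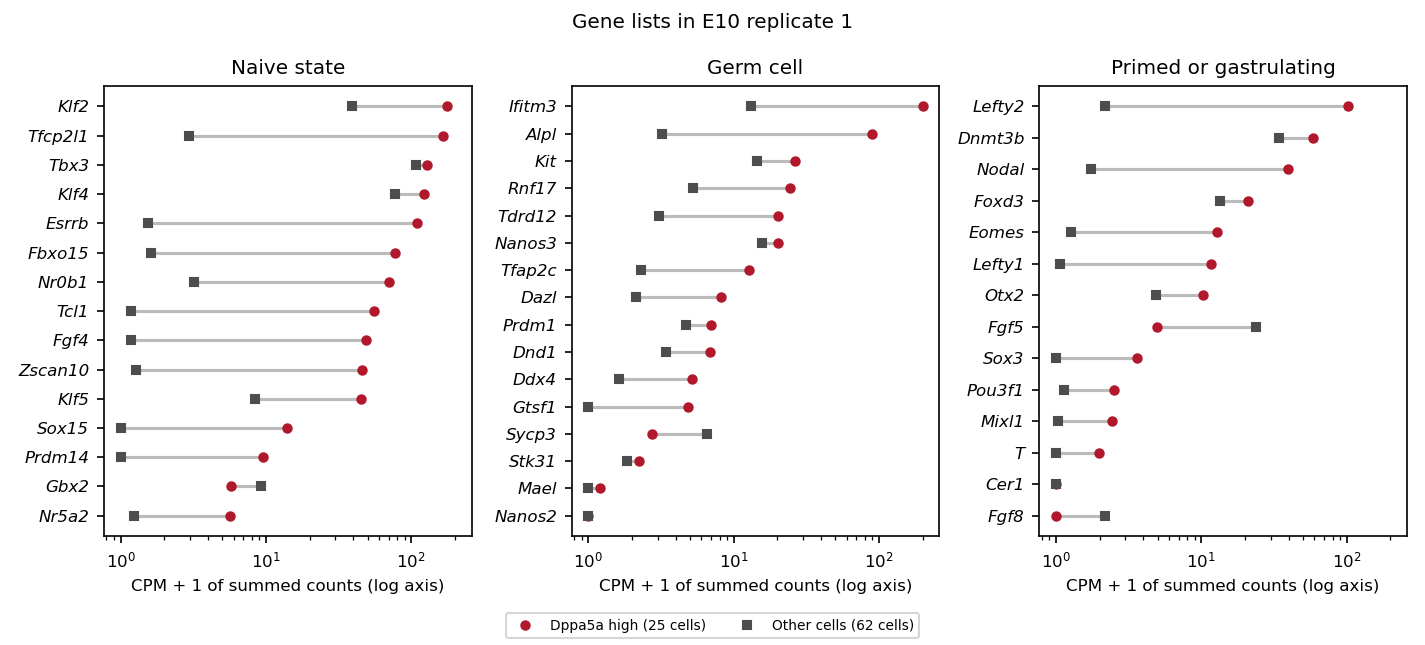
Each row is 1 gene, with CPM of summed counts plus 1 on a log axis, for the 25 Dppa5a-high cells (red circles) and the 62 other cells of E10 replicate 1 (grey squares). Most naive-state genes lie to the right in the Dppa5a-high cells, while most germ cell genes stay below 10 CPM in both groups.

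Primed and gastrulation genes were mixed. Of 14 genes 7 were measured: 4 were at least 2-fold higher, 1 was lower and 2 were within 2-fold. The Nodal pathway genes Lefty2 (101 and 1.17 CPM), Nodal (38.4 and 0.755 CPM) and Lefty1 (10.7 and 0.0687 CPM) were higher, as was Eomes (11.8 and 0.275 CPM). All 4 reached 10 CPM in the Dppa5a-high sum alone. Fgf5, a marker of the primed epiblast, was lower on summed counts, at 3.99 and 22.7 CPM. It was detected in 10 of 25 Dppa5a-high cells and 25 of 62 other cells, with a median of 0 CPM in both groups. In the other cells of E10 replicates 2 and 3 and E9.5 replicates 1 and 2 it had 1.48, 1.68, 12.3 and 0.716 CPM. Otx2 had 9.35 and 3.91 CPM, T 0.981 and 0 CPM, and Cer1 0 UMIs in both groups. The 7 genes of the 2-cell-like state that were in the table, such as Zscan4c and Zfp352, had 0 UMIs in the Dppa5a-high cells and in the other cells of the batch. Of 11 measured genes of LIF and ERK signalling, Etv5 was higher (81.9 and 10.1 CPM) and 10 were within 2-fold. Of 8 measured genes around the threonine and one-carbon pathway in which Tdh acts, Shmt1 was higher (77.4 and 27.6 CPM) and 7 were within 2-fold. Over all 9647 measured genes, 5.29% were at least 2-fold higher and 6.05% lower. A single gene in lists of 11 and 8 cannot be set apart from that share.

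The Dppa5a-high cells also held transcripts of other lineages, and those of mesenchyme were at substantial levels. The sum of 10 mesenchyme markers had a median of 1210 CPM in the Dppa5a-high cells, with a range of 24.6 to 4360 CPM. In the other cells of the batch the median was 2474 CPM and the range 175 to 5606 CPM. At least 8 of the 10 markers were detected in 22 of 25 Dppa5a-high cells and in 55 of 62 other cells, and 0 of the 10 were at 0 in either sum. Prrx1, a limb and head mesenchyme factor, had 166 and 419 CPM, and Col1a2, a collagen chain, 270 and 691 CPM. In 14 of 25 Dppa5a-high cells the mesenchyme sum was at or above the lower quartile of the other cells, and in 6 at or above their median. Across the 25 cells the members' sum had an r of -0.44 with the mesenchyme sum. The part of these transcripts in the members' levels was not tested.

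**Figure D4:**
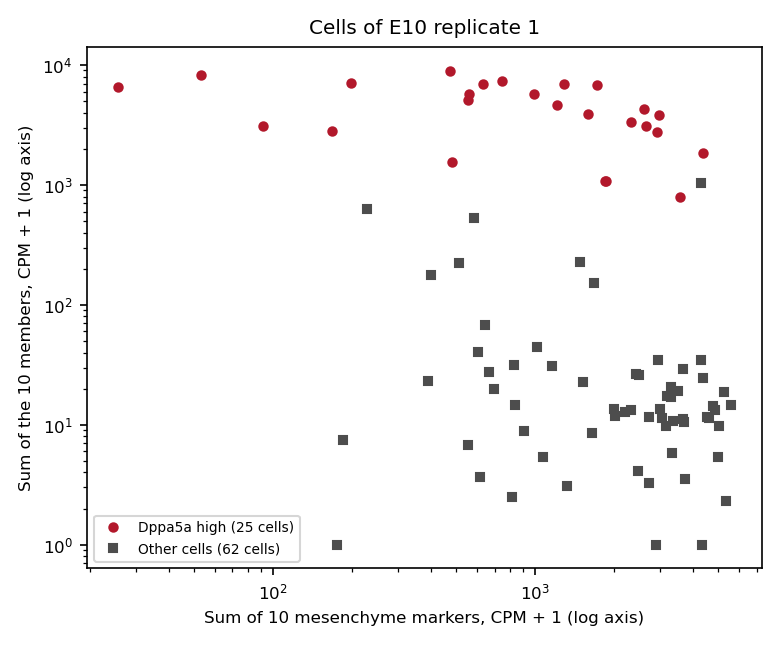
Each point is 1 kept cell of E10 replicate 1, with the summed CPM of 10 mesenchyme markers on the horizontal log axis and that of the 10 members on the vertical log axis, each with 1 added. On the horizontal axis the Dppa5a-high cells (red circles) span 24.6 to 4360 CPM and the other cells (grey squares) 175 to 5606 CPM, so the groups overlap over much of their range.

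Markers of further lineages were checked in the same cells. The summed erythroid list had a median of 251 CPM in the Dppa5a-high cells and 389 CPM in the other cells of the batch, but reached 198860 CPM in the Dppa5a-high cell of column 95. All 6 measured erythroid genes were at least 2-fold higher with that cell and 0 without it. The neural or crest sum had a median of 516 CPM in the Dppa5a-high cells and 130 CPM in the others, and exceeded 3000 CPM in 2 Dppa5a-high cells, columns 27 (9648 CPM) and 96 (3826 CPM). Stmn2, a microtubule regulator of neurons, was the 1 higher gene of the 10 in that list, at 349 and 21.1 CPM, and it was detected in all 25 cells. In the same list 3 genes were lower, while 5.29% of all measured genes were higher and 6.05% lower. The endothelial sum ranged from 0 to 216 CPM in the Dppa5a-high cells and from 0 to 420 CPM in the others, with Cdh5 and Tie1 at 0 UMIs in both. Among the genes of the sorted surface proteins, Ptprc (CD45) had 0 UMIs in the Dppa5a-high cells, as it had in the other cells of every batch. Itga2b (CD41) had 50 UMIs, all in the cell of column 95, and Spn (CD43) had 6 UMIs in 2 cells.

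Depth and the sex-linked transcripts also differed. The median Dppa5a-high cell had 545091 UMIs and 9042 genes, and the median other cell of the batch 457838 UMIs and 7132.5 genes. After thinning every cell to 30000 UMIs the medians were 5259 and 4386 genes. Spike-in counts made up a median of 4.45% in the Dppa5a-high cells and 7.14% in the others. Xist, transcribed from the inactive X, and 4 Y-linked genes were both detected in 22 of 25 Dppa5a-high cells and in 8 of 62 other cells. With at least 10 UMIs of each they were found together in 14 of 25 and 0 of 62 cells, and at 30000 UMIs with at least 1 UMI of each in 11 of 25 and 3 of 62. The same 3 shares were 88%, 56% and 44% of the Dppa5a-high cells, and by batch 30.8% to 93.1%, 0% to 12.5% and 7.69% to 25% of the cells of the other batches. Whether any well received more than 1 cell was not tested.

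Beyond the lists, the 10 genes with the largest positive log2 ratio outside the members included Mt1, a metallothionein, at 1532 CPM in the Dppa5a-high cells and 29.0 CPM in the other cells of the batch. Mt2 had 956 and 12.6 CPM. In the other 4 batches the other cells had Mt1 sums of 791 to 5197 CPM, so the low value was that of the other cells of E10 replicate 1. Chchd10, a mitochondrial protein, had 605 and 5.70 CPM, Hspb1, a small heat-shock protein, 598 and 14.3 CPM, and Apoe 1088 and 46.3 CPM. The other cells of the other 4 batches had 24.6 to 163 CPM of Chchd10, above those of E10 replicate 1. They had 6.56 to 64.4 CPM of Hspb1 and 25.8 to 164 CPM of Apoe. Trh, which encodes thyrotropin-releasing hormone, had 316 and 2.47 CPM, and Fam25c 236 and 1.41 CPM. The remaining 3, the globins Hbb-bh1, Hba-x and Hbb-y, had log2 ratios of 4.74, 4.53 and 4.32. Without column 95 these became -0.54, -0.62 and -0.66. Hbb-y stood at 103 CPM in the other 24 Dppa5a-high cells and 168 CPM in the other cells of the batch, while the sums of the other 4 batches lay between 5466 and 38934 CPM. The largest negative ratios belonged to Acta2 (2.81 and 122 CPM), Actc1, Ankrd1, Myl9, Tagln, Cxcl12, Aldh1a2, Amotl1, Miat and Vcam1. Acta2, Actc1, Myl9 and Tagln are genes of contractile cells. Few cells carry some of these sums: the median cell had 2.62 and 3.98 CPM of Acta2, 1.89 and 2.21 CPM of Actc1, and 0 CPM of Ankrd1 in both groups. In all, 510 of 9647 measured genes were higher and 584 (6.05%) lower.

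The Dppa5a-high cells lay close together in the table. In columns 23 to 50 of E10 replicate 1, 21 of 27 kept cells were Dppa5a-high, and outside them 4 of 60, in columns 1, 2, 95 and 96. This range was chosen after the values were seen, and what the column order records is not stated in the labels. The same column numbers carried 0 Dppa5a-high cells in the other batches. Same-numbered columns of E10 replicate 1 and another batch were also compared by r, and transfer of molecules between them was not tested. For the Dppa5a-high columns the median r with the kept cell of the same number was 0.673 in E10 replicate 2, against 0.674 with cells of other numbers, over 23 pairs. It was 0.552 against 0.588 in E10 replicate 3 (17 pairs), 0.668 against 0.626 in E9.5 replicate 1 (6 pairs), and 0.599 against 0.619 in E9.5 replicate 2 (20 pairs).

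**Figure D5:**
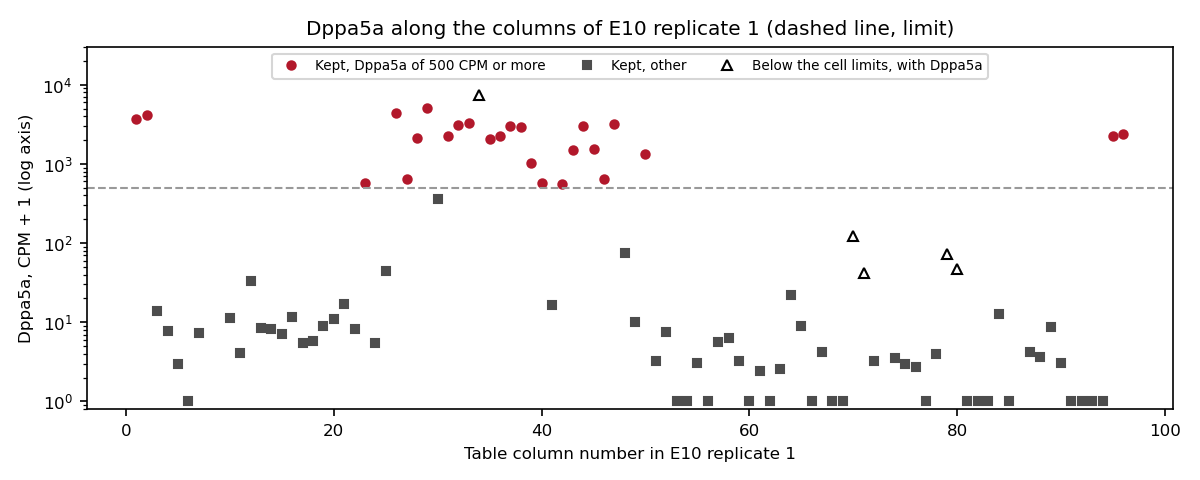
Dppa5a in CPM with 1 added (log axis) against the column number in E10 replicate 1. Red circles are Dppa5a-high cells, grey squares other kept cells, and open triangles columns below the cell limits that held Dppa5a. Dppa5a-high cells fill most of columns 23 to 50 and recur at columns 1, 2, 95 and 96.

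In the other cells Dppa5a was at trace level, most often in the batch that held the Dppa5a-high cells. Its UMIs were seen in 44 of 62 other cells of E10 replicate 1 (71.0%, exact interval 58.1% to 81.8%), in 0 of 72 cells of E10 replicate 2, in 0 of 63 cells of E10 replicate 3, in 2 of 26 cells of E9.5 replicate 1 and in 4 of 46 cells of E9.5 replicate 2. In those E9.5 batches they came to 3 and 4 UMIs. At an equal depth of 30000 UMIs the share was 25 of 25 Dppa5a-high cells and 4 of 62 other cells of the batch (6.45%), with 1 cell in E9.5 replicate 2 and 0 in the other 3 batches. The sum of the 62 cells, 11.0 CPM, was 4.62 CPM without the cell of column 30 and 3.63 CPM without the 3 cells nearest the limit. The source of this trace was not tested.

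Outside E10 replicate 1 each member had its own pattern. Tdgf1, Pou5f1 and Dppa3 had 0 UMIs in all 4 batches, which allows at most 0.124 CPM in E10 replicate 2 and 0.398 CPM in the shallowest sum, E9.5 replicate 1. Zfp42 had 1 UMI, in E10 replicate 2, and Tdh 1 UMI, in E9.5 replicate 2. Nanog was detected at trace level in each batch, with sums of 1.65, 0.206 and 0.496 CPM in E10 replicates 1 to 3 and 0.530 and 0.358 CPM in E9.5 replicates 1 and 2. The interval of E10 replicate 1, 1.22 to 2.19 CPM, lay above those of E10 replicates 2 and 3 and E9.5 replicate 2. Without the 3 cells nearest the limit it stood at 1.03 CPM (0.691 to 1.48), which overlaps E10 replicate 3 and both E9.5 batches. L1td1 had 30 UMIs in 2 cells of E10 replicate 2, 1 of them at 127 CPM. Spp1, which many tissues secrete, had 28 UMIs in 7 of 26 cells of E9.5 replicate 1 and 17 UMIs in 5 of 72 cells of E10 replicate 2.

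Sox2, like Nanog, was found in other cells of every batch. Its sums in other cells were 19.5, 8.32 and 14.2 CPM in E10 replicates 1 to 3 and 6.36 and 10.7 CPM in E9.5 replicates 1 and 2, and its highest cells reached 622, 359, 474, 103 and 192 CPM in the same order. At least 100 CPM of Sox2 was present in 13 of 269 other cells, 5, 2, 4, 1 and 1 by batch. Of these 13 cells, 12 had at least 100 CPM of Sox10, a neural crest and glial factor, or Tubb3, a neuronal tubulin. The exception was column 30 of E10 replicate 1. Only 2 of the 13 held Nanog UMIs, 3 Zfp42 UMIs and 4 Tdgf1 UMIs.

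Stage was compared in the other cells, with counts summed per batch, as E10 (3 batches) over E9.5 (2 batches). This left out the 25 Dppa5a-high cells, all of E10 replicate 1. Any excess of the members that those cells carried at E10 was thus removed before the tests. The quasi-likelihood test of edgeR, adjusted by Benjamini-Hochberg over all genes tested, called 0 of 13940 genes at an adjusted p of 0.05 (0%), with 1011 genes at an unadjusted p under 0.05, and DESeq2 called 61. Of the members 4 passed the filter on low counts and 0 were called. Sox2 averaged 13.2 ± 3.57 CPM at E10 (SD, n = 3) and 9.17 ± 4.27 CPM at E9.5 (SD, n = 2), a log2 fold change of 0.52 (SE 0.56, edgeR adjusted p = 0.826). Nanog averaged 0.700 ± 0.611 and 0.459 ± 0.0753 CPM, with a log2 fold change of 0.61 (SE 1.78, edgeR adjusted p = 0.948). Spp1 averaged 1.58 ± 2.09 and 1.86 ± 2.44 CPM, with a log2 fold change of -0.24 (SE 2.15, edgeR adjusted p = 0.983). L1td1 averaged 1.27 ± 1.22 CPM at E10 and had 0 UMIs in both E9.5 batches (edgeR adjusted p = 0.679). For each of these 4 the values of the E10 batches overlapped those of the E9.5 batches. The other 6 members were too low to be tested. Of 9 tested genes of the further pluripotency list and 8 of the naive-state list, 0 were called in either direction.

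The share of other cells with at least 1 UMI at 30000 UMIs was also compared by a two-sided exact permutation over the 10 splits of the 5 batches, which cannot give a p below 0.1. Nanog was detected in 4.20% ± 2.58 of cells at E10 and 1.09% ± 1.54 at E9.5 (SD over batches), the lowest exact p of the family at 0.3. Sox2 was detected in 11.9% ± 3.95 and 10.1% ± 2.01 (exact permutation p = 0.9). After adjustment over the 10 members every p was 1, so no stage difference was detectable among the other cells with 5 batches. The Dppa5a-high cells were left out here too.

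Counts of some members can be affected by related loci. The annotation (GENCODE vM21) names 2 further copies of Dppa5a, 2 pseudogenes each of Nanog and Tdgf1, and 1 each of Zfp42 and Dppa3, and their reads may be lost or shared. Sox2 lies within the noncoding gene Sox2ot, and Pou5f1, Tdh and Spp1 each overlap 1 further annotated gene. The sources used here give no strand setting, and reads of overlapping genes cannot be told apart.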

How the data were processed

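Per the submitters' processing notes, CASAVA 1.8, TopHat2 2.0.12, HTSeq and the mm10 genome were used, and the authors deposited UMI counts per gene and cell. The table has 24411 genes, 95 spike-in rows, which were dropped, and 480 columns, 96 per batch, 111 of them with 0 UMIs. Columns were matched to samples by batch number alone. CPM was computed from the counts per cell or per sum of cells. UMI counts of transcript ends were not scaled by transcript length, and levels are compared between cells, not between genes. No doublet caller was run, since cells were picked by hand. The members and the gene lists were chosen with earlier results of these data known.

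Log2 ratios use CPM with 10 added, and a gene is measured with at least 10 CPM in either sum. A gene almost absent from the other cells that is measured through the Dppa5a-high sum alone is thereby 2-fold higher by construction. Stage fits used edgeR 4.0.16 (filterByExpr, TMM, quasi-likelihood) with DESeq2 1.42.0 as the second tool under R 4.3.3, and were tested on simulated data. Standard errors are the size of the log2 fold change divided by the square root of F. CPM in the stage fits uses TMM-scaled totals. Cell-level values used Python 3.11.15, with scipy 1.17.1 for exact intervals, and thinning used seed 1. Where a sum held no UMIs of a gene, the CPM said to be allowed is that of 3 UMIs. Genes are named as members, list genes, the 10 largest ratios per direction, or the 10 most similar to Dppa5a. Alternatives changed the limits, the scaling, the fold, the depth and the batches. The alternative without column 95 was chosen after seeing the data. Promoters are from RefSeq (GRCm38.p6), and loci from GENCODE vM21 (GRCm38).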

Additional observations from a re-analysis of the deposited data

Results flagged for a closer look

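Among the columns below the cell limits, which enter no comparison above, column 34 of E10 replicate 1 held 80 Dppa5a UMIs of 10763. This is 7433 CPM (exact Poisson interval 5894 to 9251), above each of the 25 kept Dppa5a-high cells. It had 138 UMIs of the members in all, among them 16 of Spp1, 13 of Zfp42 and 10 of Tdh. It had 0 UMIs of the mesenchyme list, of the erythroid list and of the Hox genes, and spike-ins made up 31.0% of its counts. The column lies between columns 23 and 50, where most Dppa5a-high cells were found. Of the 9 such columns with UMIs in E10 replicate 1, 5 held Dppa5a, and in the other 4 batches 0 of 24, 33, 5 and 4 did.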

How the results depend on the processing

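The share of Dppa5a-high cells in E10 replicate 1 stayed within its counting interval at limits of 100 and 1000 CPM (29.9% and 22.99%) and at minima of 5000 and 100000 UMIs (27.1% and 28.9%). The log2 ratio of each of the 10 members kept its sign under all 10 alternatives, for example 1.28 to 4.05 for Pou5f1 and 3.83 to 6.45 for Tdgf1, both highest with 1 CPM added. The count of genes higher in Dppa5a-high cells was 510, against 837 with 1 CPM added and 120 at 4-fold. The count of genes lower was 584, against 1401 with 1 CPM added, 5 at 4-fold and 235 when set against the other cells of all batches. At 4-fold, 2 germ cell genes were higher in place of 4. Mesenchyme genes counted as lower were 4, but 2 with a mean over cells or with thinned cells, and 0 at 4-fold or against the other cells of all batches. Against those cells 0 erythroid genes were higher and 8 lower.

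The count of genes past the stage threshold was 0, 61 with DESeq2, and 0 to 1 when a batch was left out. The stage difference of Spp1 turned positive with all kept cells (log2 fold change 4.58, share of cells 6.19 percentage points), a setting that includes the Dppa5a-high cells. With each batch left out in turn, its log2 fold change ranged from -2.22 to 3.48 (0.08 without E10 replicate 2, 0.34 without E10 replicate 3, 3.48 without E9.5 replicate 1). Its share difference ranged from -7.31 to 4.23 points (0.57 without E10 replicate 3, 4.23 without E9.5 replicate 1). The share difference of Dppa5a ranged from -1.09 points without E10 replicate 1 to 2.15 points without E9.5 replicate 2, and was -0.02 points without E9.5 replicate 1. That of Sox2 ranged from -0.39 points without E10 replicate 1 to 3.50 points without E10 replicate 2. The cause was not tested. No paired analysis was possible because replicate numbers follow accession order and each batch holds 1 stage. Depth limits the traces in other cells, of which most members had 0 to 4 UMIs per batch outside E10 replicate 1.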

Other observations

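Gene groups outside pluripotency were compared between the Dppa5a-high cells and the other cells of E10 replicate 1, with no test. The shares over all 9647 measured genes, to be read beside each count, were 5.29% at least 2-fold higher and 6.05% lower. Of 14 measured imprinted genes 0 were at least 2-fold higher, 6 were lower and 8 within 2-fold. Igf2, the fetal growth factor, had 671 CPM in the Dppa5a-high cells and 1751 CPM in the others, and Cdkn1c, a cell cycle inhibitor, 262 and 592 CPM. Without column 95, Grb10 moved inside 2-fold (log2 ratio -0.99), while H19 moved outside it (-1.20). Of 17 measured Hox genes, 0 were higher, 3 lower and 14 within 2-fold, with a median log2 ratio of -0.69. The summed Hox level was 387 CPM in the median Dppa5a-high cell and 840 CPM in the median other cell, with ranges of 35.9 to 1051 CPM and 14.4 to 2527 CPM.

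Of 12 extraembryonic endoderm markers 3 were measured. Dab2 (49.1 and 147 CPM), Gata6 (17.1 and 45.3 CPM) and Gata4 (3.01 and 18.3 CPM) were at least 2-fold lower in the Dppa5a-high cells. Afp, Foxa2, Sox7 and Cubn had 0 UMIs in both groups. Of 10 trophoblast markers 3 were measured, all within 2-fold, and Cdx2 stood at 0.262 and 0.0343 CPM.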
